A study of Mus musculus with 2 samples.

Results

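The comparison set 7 mice that had received an antibody against PD-L1 beside 7 mice that had not, in leukocytes of a transplanted tumour, with a second agent carried as a covariate. All mice were wild-type BALB/c animals bearing Colon26, a mouse colon carcinoma line, under the skin of the right flank. Of the mice not given the antibody, 3 were untreated (Control) and 4 had received minP1, an immunostimulatory peptide of HMGN1, as 0.08 µg into the peritoneum on day 9 (minP1). Of the mice given the antibody, 3 had received it alone (PDL1) and 4 together with the same peptide dose (minP1_PDL1). The antibody, clone 10F.9G2, was given into the peritoneum on days 4 and 8 at 200 µg each time, and all tumours were taken on day 10. The labels name no isotype antibody for the other mice. They also call the cells intestinal, although the tumour model they describe is subcutaneous.

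Members were the cells of each mouse in which mitochondrial genes held no more than 25% of reads. That left 7732 of 8115 cells, 3573 from mice given the antibody and 4159 from mice not given it, and reads were summed per mouse so that the mouse was the replicate. Nothing measured entered the choice of mice.

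PD-L1, encoded by Cd274, is a surface ligand that tumour cells, macrophages, dendritic cells and neutrophils can carry. It binds PD-1 (Pdcd1) on activated T cells, dampens signalling from the T cell receptor, and also binds CD80 (Cd80) on the cell that carries it. Interferon raises its transcription in many cells. The antibody blocks these contacts, and its constant region can be bound by Fc receptors of myeloid cells.

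Each mouse gave 466 to 724 kept cells and 26007834 to 51230461 reads, with no barcode shared between mice. Mice given the antibody gave fewer kept cells, 510.4 ± 34.8 (SD, n = 7) against 594.1 ± 85.3, a difference of -83.7 cells (two-sided exact permutation within minP1 strata, p = 0.00857, adjusted p = 0.0514 over 8 measures of the mice). Their median mitochondrial share was 5.32% ± 0.25 against 5.65% ± 0.22 (exact p = 0.0129, adjusted p = 0.0514), and their total reads were lower (exact p = 0.0343, adjusted p = 0.0914). The median of reads per cell was close in both arms, 39490 and 40070 (exact p = 0.89). Cells of 2 clusters without leukocyte identity, one led by Mgp, Baiap2l1 and Timp3 (506 cells) and one by Ptn, Krt19 and Krt8 (43 cells), were among those labelled CD45+. A doublet score lay over 0.5 in 24.3% of kept cells, 24.33% of cells in mice given the antibody and 24.26% in the others. The labels speak of runs without assigning mice to them, and all barcodes carry 1 run tag.

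The first question was whether the make-up of the infiltrate differed with the antibody. That the neutrophil share differed between groups was already known before these tests. Neutrophils, the granulocytes that leave blood early in inflammation and carry the S100a8 and S100a9 proteins, were the class with the smallest p. Cells were clustered and named from marker genes, and the neutrophil-like cluster, called neutrophils here, held 490 cells, 8 to 62 per mouse. Its share of kept cells was 1.65%, 2.16% and 3.99% in the untreated mice and 3.37%, 5.03%, 7.04% and 5.30% in the minP1 mice. It was 7.25%, 10.1% and 9.13% in the mice given the antibody alone and 11.1%, 6.26%, 8.83% and 8.74% in those given both. The arms overlapped at 1 mouse on each side, minP1 replicate 3 above minP1_PDL1 replicate 2. The mean was 8.78% ± 1.64 against 4.08% ± 1.88 (SD, n = 7 each), a difference of 4.70 percentage points. By two-sided exact permutation within strata p was 0.00286, and the adjusted p of 0.0771 over 27 classes missed the threshold of 0.05. The smallest p that these relabellings allow is 0.00143.

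The neutrophil difference was 6.22 points without minP1 and 3.56 points with it. The gap between the strata had an exact permutation p of 0.459. Those relabellings assume no antibody effect in either stratum, so this p cannot decide whether the antibody difference depends on minP1. Fitted as numbers of cells by edgeR, neutrophils were the single class to pass, with a log2 change of 1.13 (adjusted p = 0.00566). The permutation test passed without minP1_PDL1 replicate 2, where the difference was 5.23 points (adjusted p = 0.0386). As a share of monocytes, macrophages, dendritic cells and neutrophils alone, a denominator chosen after the values had been seen, the difference was 9.12 points (exact p = 0.00143, the smallest possible). In the neutrophil cluster 25.7% of cells had a doublet score over 0.5, and without all such cells the difference was 5.14 points.

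**Figure D1:**
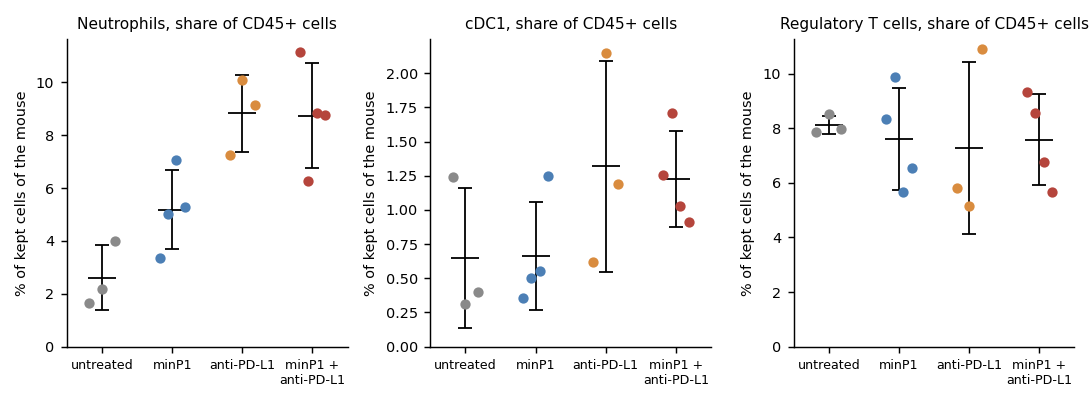
Share of kept cells per mouse (y axis, %) held by neutrophils, type 1 conventional dendritic cells (cDC1) and regulatory T cells in the 4 treatment groups; points are mice, horizontal lines are means and bars are SD. Neutrophil shares of the 7 antibody mice sit between 6.26% and 11.1%, and those of the other 7 between 1.65% and 7.04%, while regulatory T cells do not separate.

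Other classes had larger p. The cDC1 cells, which present tumour antigen to CD8 T cells, numbered 72 and made up 1.27% ± 0.51 against 0.658% ± 0.408 (exact permutation p = 0.0429, adjusted p = 0.54). Within dendritic cells their share was 20.4% against 11.1%, with an exact permutation p of 0.0343 and an adjusted p of 0.343 over 15 clusters. A cluster of 60 T cells led by Tnfsf11, Dusp14 and Tnfsf8, with Cd4, Cd40lg and Pdcd1 also among its top 10 genes, held 4.22% of T cells against 2.23% (exact permutation p = 0.0457, adjusted p = 0.343). T cells as a whole made up 23.6% ± 3.3 against 25.5% ± 4.5 (exact permutation p = 0.404) and NK cells 15.8% ± 3.2 against 17.7% ± 2.1 (exact permutation p = 0.227). Regulatory T cells, which restrain other T cells, were at 7.45% ± 2.18 and 7.82% ± 1.37 (exact permutation p = 0.726), and CD8 T cells, the class that kills tumour cells, at 3.51% ± 1.15 and 3.67% ± 1.16 (exact permutation p = 0.777). The CD8 T cells counted were 1 cluster of 279 cells with Cd8a, Ifng, Pdcd1 and Lag3 among its top 10 genes. A T cell cluster of 816 cells, with Cd8b1 among its top 50 genes, is in neither the CD8 share nor the ratio. CD8 T cells per regulatory T cell stood at a log2 ratio of -1.08 ± 0.60 against -1.12 ± 0.61 (exact permutation p = 0.899). After adjustment none of the 27 shares passed by permutation.

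The next question was which genes differed in the sum of all CD45+ cells. Here and below, a level is in CPM, the reads of a gene scaled to a common total of the summed library, and a log2 change is the level in mice given the antibody relative to mice not given it, with minP1 in the model. In such sums, fewer cells of a type and less RNA of a gene per cell cannot be told apart. edgeR's quasi-likelihood test passed 0 of 17198 genes at an adjusted p under 0.05. By sign alone 49.7% of genes were above 0 and 50.3% below. At an unadjusted p under 0.05, 632 genes (3.67%) were higher and 753 (4.38%) lower. DESeq2 passed 63 genes (0.397%) as higher and 46 (0.29%) as lower of the 15852 it adjusted. The median log2 change of all genes was -0.00143, and 13 genes (0.0756%) in each direction had arms that did not overlap.

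S100a9, a calcium-binding protein abundant in neutrophils, had the smallest p. It stood at 190.7, 186.8 and 232.1 CPM in untreated mice and at 309.6, 261.1, 397.8 and 287.4 CPM with minP1. With the antibody alone it stood at 406.7, 718.3 and 443.6 CPM, and with both agents at 565.3, 409, 816.4 and 610.3 CPM. The arms did not overlap, and the log2 change was 1.12 ± 0.17 (SE; edgeR adjusted p = 0.0956). It was 0.54 when neutrophils were left out of the sum (adjusted p = 0.729). edgeR passed S100a9 without minP1 replicate 3 (adjusted p = 0.0391), without minP1_PDL1 replicate 2 (0.0193) and without the non-immune clusters (1.08, adjusted p = 0.0368).

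S100a8, its partner, was at 178.2 ± 63.6 CPM without and 380.3 ± 115.7 CPM with the antibody (log2 change 1.07 ± 0.20, adjusted p = 0.12). Its arms overlapped, since PDL1 replicate 1 stood at 215.2 CPM and minP1 replicate 3 at 288.7 CPM. Csf3r, the receptor of the granulocyte growth factor G-CSF, was at 43.8 ± 7.4 and 74.3 ± 21.9 CPM (0.77 ± 0.17, adjusted p = 0.19). Cxcr2, a chemokine receptor that draws neutrophils into tissue, was at 37.7 ± 8.6 and 64.9 ± 20.7 CPM (0.79 ± 0.19, adjusted p = 0.23). Of 23 measured neutrophil granule and effector genes, 18 were above 0 with a median log2 change of 0.27, and 7 had an unadjusted p under 0.05, all higher, beside 49.7% and 3.67% of all genes. S100a9, S100a8 and Stfa2l1 (1.08 ± 0.24) led them and passed DESeq2's test. With neutrophils left out of the sum, 4 members had an unadjusted p under 0.05. The 12 neutrophil markers summed to 1430 to 2520 CPM with the antibody and 781 to 1530 CPM without, side by side with the neutrophil share.

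Of 21 measured genes for neutrophil recruitment and growth factors, 7 were higher at an unadjusted p under 0.05, beside 3.67% of all genes. The list's median was 0.21. Csf3r and Cxcr2 led it with Cxcl2, a chemokine that binds CXCR2 (1263 ± 255 against 1887 ± 523 CPM, 0.57 ± 0.16). All 3 passed DESeq2's test. Csf3r and Cxcr2 were also among the markers that named the neutrophil cluster. With neutrophils left out of the sum, their log2 changes were 0.477 and 0.305. The part of the neutrophil share in this list was not tested.

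The other genes of smallest p were Slc7a11, Slfn4, 4930428O21Rik and Islr. Slc7a11, the cystine importer that feeds glutathione synthesis, was at 21.5 ± 6.0 CPM without and 40.8 ± 10.8 CPM with the antibody (0.92 ± 0.15, adjusted p = 0.0956). Its arms overlapped, because minP1 replicate 3 stood at 33.33 CPM and PDL1 replicate 1 at 23.8 CPM. Slfn4, a myeloid Schlafen gene induced by interferon, was at 110.1, 119 and 172.6 CPM in untreated mice and 104.1, 163.3, 198.8 and 135.1 CPM with minP1. It was at 214.1, 332.6 and 278.9 CPM with the antibody and 327.7, 250.9, 301.8 and 206.9 CPM with both. No antibody mouse was below the highest of the others, and the change was 0.93 ± 0.16 (adjusted p = 0.0956). Slfn4 was also among the top 10 genes of the neutrophil cluster. By DESeq2 its log2 change was 0.941 in all cells and 0.64 without neutrophils and non-immune clusters. That of Slc7a11 was 0.932 and 0.646. The part of the neutrophil share in these changes was not tested. 4930428O21Rik and Islr were near the detection floor, at no more than 0.0296 and 0.0389 CPM in any antibody mouse against 0 to 1.34 and 0.0279 to 1.42 CPM in the others.

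**Figure D2:**
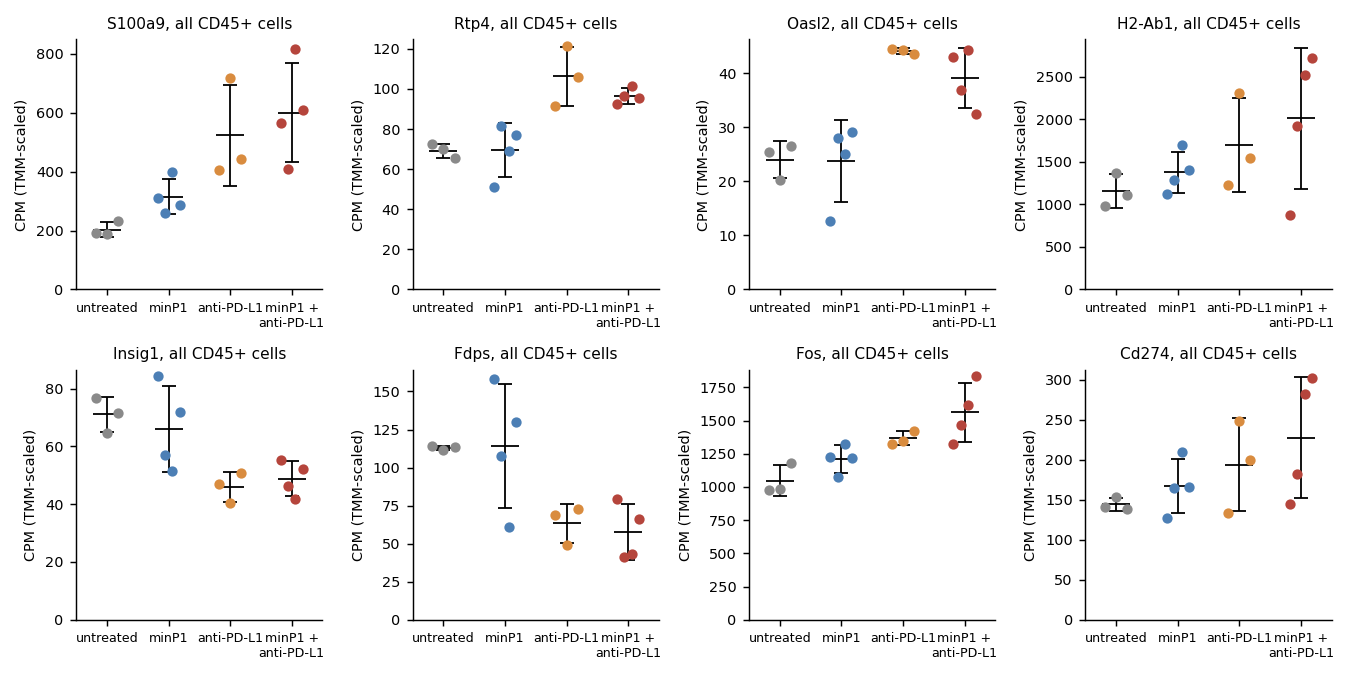
Level of 8 genes (y axes, CPM scaled by TMM) in the sum of all CD45+ cells of each mouse, by treatment group; points are mice, horizontal lines means and bars SD. S100a9, Rtp4 and Oasl2 do not overlap between the antibody mice and the others, while Cd274, Insig1, Fdps, Fos and H2-Ab1 do.

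The question for the named pathways was whether their genes moved together, and the type I interferon response was read first. Its members are genes that cells switch on when interferon alpha or beta activates a complex that holds STAT2 and IRF9, and many restrict viruses. All 32 measured members were above 0 in the sum of all cells, with a median log2 change of 0.36. At an unadjusted p under 0.05, 22 of the 32 were higher and 0 lower, beside 3.67% higher among all genes. edgeR passed 0 of them and DESeq2 passed 6 (Rtp4, Oasl2, Irf9, Isg15, Oas3 and Zbp1).

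Rtp4, a receptor-transporting protein induced by interferon, stood at 72.39, 69.91 and 65.44 CPM in untreated mice and 50.95, 81.4, 69.19 and 77.03 CPM with minP1. It stood at 91.69, 121.2 and 106.1 CPM with the antibody and 92.39, 96.45, 101.5 and 95.5 CPM with both. The arms were apart, with a change of 0.53 ± 0.10 (edgeR adjusted p = 0.0956). Oasl2, of the family of 2'-5' oligoadenylate synthetases, was at 25.36, 20.23 and 26.54 CPM untreated, 12.62, 27.99, 25.09 and 29.09 CPM with minP1, 44.48, 44.4 and 43.57 CPM with the antibody and 43.03, 36.95, 44.25 and 32.44 CPM with both. Its arms did not overlap (0.79 ± 0.15, adjusted p = 0.13). Irf9, a subunit of the transcription factor that interferon activates, was at 57.5 ± 4.9 and 73.6 ± 6.6 CPM and Isg15, a ubiquitin-like modifier, at 81.5 ± 15.7 and 117.6 ± 16.2 CPM. Their changes were 0.36 ± 0.07 (adjusted p = 0.16) and 0.53 ± 0.13 (adjusted p = 0.23), and their arms were apart too. In minP1 replicate 1, Isg15 was at 47.5 CPM, far below the next lowest, and Rtp4, Oasl2 and Irf9 were lowest in the same mouse.

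The response element bound by that complex holds spaced GAAA repeats, so the promoters of the members were searched on both strands for GAAA followed, after any 2 bases, by GAAA again, in the 250 bases before the start of the gene. RefSeq sequences of GRCm38.p6 gave a window for 23 of the 32 members. The letters were in 10 of the 23 (43.5%), in 936 of 27025 genes (3.46%) and in 1 of 17 cholesterol genes (5.88%). Matches can overlap, as they do in Isg15. The windows below show 100 bases each, on the strand of the gene, of members whose promoter held a match, with matches in capitals. No match was in the windows of Oasl2 and Irf9, and Oas3 held 1. A match on the other strand reads TTTC, any 2 bases, TTTC.
Isg15, 3 matches, chr4:156200827-156200926 (minus strand): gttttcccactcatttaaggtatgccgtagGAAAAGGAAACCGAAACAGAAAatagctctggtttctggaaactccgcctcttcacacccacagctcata
Bst2, 2 matches, chr8:71537533-71537632 (minus strand): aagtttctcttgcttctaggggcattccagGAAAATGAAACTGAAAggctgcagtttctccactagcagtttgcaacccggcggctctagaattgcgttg
Oas1a, 2 matches, chr5:120907526-120907625 (minus strand): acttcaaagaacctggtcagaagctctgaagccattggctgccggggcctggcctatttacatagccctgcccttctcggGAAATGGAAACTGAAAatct
Ifit1, 2 matches, chr19:34640755-34640854 (plus strand): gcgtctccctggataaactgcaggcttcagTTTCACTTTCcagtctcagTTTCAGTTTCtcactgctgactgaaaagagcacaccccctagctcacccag
Stat2, 1 match, chr10:128270248-128270347 (plus strand): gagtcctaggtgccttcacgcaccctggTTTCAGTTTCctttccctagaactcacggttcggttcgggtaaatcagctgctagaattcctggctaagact

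The log2 changes of these genes were 0.53 for Isg15, 0.30 ± 0.10 for Bst2, a tether of budding virus, and 0.36 ± 0.11 for Oas1a, an oligoadenylate synthetase. They were 0.61 ± 0.22 for Ifit1, which binds viral RNA, and 0.34 ± 0.10 for Stat2. All 5 had an unadjusted p under 0.05 and none passed edgeR. Ifit3, Ifit3b, Rsad2, Trim30a and Oas3 also held a match and are not shown. No rule set which of the 10 were shown, so the 5 do not stand for all of them. The arms of Bst2, Oas1a, Ifit1 and Stat2 overlapped.

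The interferon list was smaller in the sum without neutrophils and non-immune cells. There, 28 of 32 members were above 0, beside 51.1% of all genes, 14 were higher at an unadjusted p under 0.05 beside 3.58% of all 16030 genes, and the median was 0.21. edgeR passed 0 genes in this sum (1155 at an unadjusted p under 0.05) and DESeq2 60, 30 (0.25%) in each direction. Rtp4 was at 71.5 ± 11.5 against 93.6 ± 12.5 CPM (0.39 ± 0.09, adjusted p = 0.25), and its arms still did not overlap, as in 0.0624% of genes higher in this sum. When cells with a doublet score over 0.5 were left out, 7 members were at that threshold.

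Cholesterol biosynthesis genes showed the opposite sign. The enzymes of this pathway build cholesterol from acetyl-CoA and are switched on together by the transcription factor SREBP2 when cell sterol is low. Of 24 measured members, 23 were below 0 with a median log2 change of -0.66. At an unadjusted p under 0.05, 20 were lower, beside 4.38% lower among all genes, and 0 higher. edgeR passed 0 of them and DESeq2 passed 10 as lower, among them Idi1, Fdps, Sqle, Insig1, Fdft1, Hmgcs1, Nsdhl, Msmo1 and Cyp51.

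Fdps, which makes farnesyl pyrophosphate, stood at 114.1, 111.3 and 113.2 CPM in untreated mice and 158.4, 107.4, 61.2 and 129.8 CPM with minP1. With the antibody it stood at 68.55, 48.9 and 72.89 CPM, and with both at 79.07, 41.42, 43.04 and 66.35 CPM. All 7 antibody mice were below the 3 untreated mice, but minP1 replicate 3 lay inside their range, and the log2 change was -0.92 ± 0.19 (edgeR adjusted p = 0.16). Idi1, an isomerase early in the pathway, was at 32.6 ± 6.4 CPM without and 18.3 ± 4.3 CPM with the antibody (-0.84 ± 0.17, adjusted p = 0.13). Insig1, a membrane protein that helps to hold SREBP in the endoplasmic reticulum, was at 68.3 ± 11.4 and 47.7 ± 5.5 CPM (-0.52 ± 0.11, adjusted p = 0.16).

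Without neutrophils and non-immune cells, 23 of 24 cholesterol genes were below 0, beside 48.9% of all genes, and 18 were lower at an unadjusted p under 0.05, beside 3.62%, with a median of -0.54. Insig1 was at 60.2 ± 8.1 and 42.8 ± 4.0 CPM in that sum (-0.49 ± 0.09, adjusted p = 0.172). The sterol response letters TCACNCCAC, read on both strands, were in 1 of 17 promoters of the list (5.88%), in 331 of 27025 genes (1.22%) and in 0 of 23 interferon promoters. The 1 gene was Hmgcs1, which makes HMG-CoA (-0.48 ± 0.11), shown here with the match in capitals.
Hmgcs1, 1 match, chr13:119690184-119690283 (plus strand): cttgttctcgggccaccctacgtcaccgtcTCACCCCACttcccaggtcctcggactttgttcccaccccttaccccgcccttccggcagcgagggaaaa

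**Figure D3:**
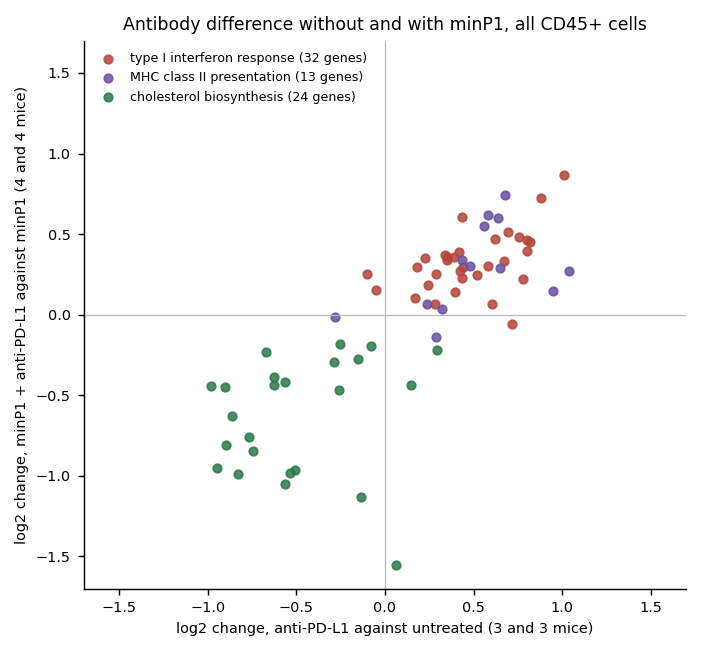
Each point is a gene of 3 lists in the sum of all CD45+ cells, with the log2 change of the antibody against untreated mice (x axis) and of both agents against minP1 alone (y axis). Of 32 interferon genes, 29 are above 0 on both axes, and of 24 cholesterol genes 21 are below 0 on both.

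The 2 strata share no mouse, and each gives its own value. The median of the interferon list was 0.44 without minP1 and 0.32 with it, and that of the cholesterol list -0.56 and -0.46. Among all genes, 27.2% were above 0 in both strata and 27.5% below 0 in both. The interaction of antibody and minP1 passed edgeR for 0 of 17198 genes (731 at an unadjusted p under 0.05), and DESeq2 passed 11. Taken stratum by stratum, edgeR passed 0 genes in each, with 1111 without minP1 and 1004 with it at an unadjusted p under 0.05.

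MHC class II genes present peptides to CD4 T cells, and CIITA is their master regulator. Of 13 members, 12 were above 0 with a median log2 change of 0.44, and 6 were higher at an unadjusted p under 0.05, beside 49.7% and 3.67% of all genes. Ciita was at 14.49, 17.83 and 13.23 CPM untreated, 13.73, 18.3, 18.7 and 21.81 CPM with minP1, 16.29, 28.01 and 28.61 CPM with the antibody and 12.75, 29.8, 44.21 and 34.61 CPM with both. Of the antibody mice, 5 were above every other mouse, while PDL1 replicate 1 and minP1_PDL1 replicate 1 were not (0.71 ± 0.22, edgeR adjusted p = 0.42). H2-Eb1, a beta chain, was at 781.2 ± 155.6 and 1196 ± 452 CPM (0.62 ± 0.22, adjusted p = 0.48), and H2-Ab1, the other beta chain, differed by 0.55 ± 0.21 (adjusted p = 0.52). The count of 6 became 2 without PDL1 replicate 2 and 3 without minP1_PDL1 replicate 4. Ciita passed DESeq2's test in the sum without neutrophils and non-immune cells, at 20.4 ± 2.3 against 32.9 ± 10.6 CPM (0.68 ± 0.18, edgeR adjusted p = 0.36). There 8 of the 13 were higher at an unadjusted p under 0.05, beside 3.58% of all genes, with a median of 0.43.

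Of 18 MHC class I presentation genes, 10 were higher at an unadjusted p under 0.05, beside 3.67% of all genes, with a median of 0.16, led by H2-Q6 (0.61), H2-T23 and Tapbp, the chaperone tapasin. Of 27 interferon gamma response genes 9 were higher at that threshold with a median of 0.21, led by Gbp7 (0.33), Ciita and Igtp (0.36), the Gbp and Igtp products being GTPases that attack intracellular microbes. Ifng itself, the cytokine made by T and NK cells, differed by 0.06 ± 0.20, and its sign turned without doublet-scored cells (-0.12).

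The antibody's own target was read next. Cd274 RNA stood at 140.9, 153.5 and 137.8 CPM untreated, 127.3, 165.1, 209.3 and 165.3 CPM with minP1, 132.8, 248.4 and 200.0 CPM with the antibody and 144.8, 182, 282 and 301.3 CPM with both. The arms overlapped, and the change was 0.44 ± 0.17 with an unadjusted p of 0.021 and an edgeR adjusted p of 0.53. Without neutrophils and non-immune cells it was 0.25 ± 0.13 (unadjusted p = 0.077). Pdcd1 was at 35.8 ± 4.2 and 34.5 ± 7.7 CPM (-0.05 ± 0.14) and Cd80 differed by -0.04 ± 0.18, with a sign that turned without doublet-scored cells (0.03). Pdcd1lg2, the other ligand of PD-1, differed by 0.21 ± 0.24.

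Of 14 genes of the PD-1 axis and co-inhibition, 11 were above 0 with a median of 0.14, beside 49.7% of all genes. At an unadjusted p under 0.05, 4 were higher, beside 3.67% of all genes. Tigit, an inhibitory receptor of T and NK cells, led with 11.1 ± 1.9 against 17.5 ± 3.4 CPM (0.66 ± 0.15, adjusted p = 0.19) and passed DESeq2's test. Btla, another inhibitory receptor, differed by 0.48. Of 9 Fc receptor genes, 0 had an unadjusted p under 0.05 in either direction, and Fcgr1, Fcgr2b, Fcgr3 and Fcgr4 differed by 0.17 ± 0.16, -0.04 ± 0.15, 0.00 and 0.32 ± 0.20, the sign of Fcgr3 changing with the scaling. Gzmb, the main granzyme of killer cells, was at 1133 ± 127 and 1091 ± 199 CPM (-0.05 ± 0.11).

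Immediate early genes are transcription factors and feedback regulators such as FOS and DUSP1 that respond within minutes to receptor signals and also to tissue digestion. In the sum of all cells 8 of 22 were higher at an unadjusted p under 0.05 and 19 were above 0, beside 3.67% and 49.7% of all genes, and the median was 0.16. Fos stood at 975.1, 985.1 and 1183 CPM untreated, 1229, 1074, 1323 and 1222 CPM with minP1, 1326, 1348 and 1425 CPM with the antibody and 1323, 1470, 1619 and 1839 CPM with both. The arms met at 1323 CPM, and the change was 0.37 ± 0.07 (adjusted p = 0.12). Dusp1, a phosphatase that ends MAP kinase signals, was at 763.7 ± 103.9 and 1027 ± 156 CPM (0.43 ± 0.09, adjusted p = 0.16). Both passed DESeq2's test.

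Among 38 cell cycle genes, 33 were below 0 with a median of -0.19 and 8 were lower at an unadjusted p under 0.05. Among all genes in this sum 50.3% were below 0, 4.38% were lower at that threshold and 3.67% higher. Mcm3, a subunit of the replicative helicase, was at 80.4 ± 11.0 without and 61.1 ± 4.5 CPM with the antibody, and its arms did not overlap (-0.39 ± 0.08, adjusted p = 0.13). An unnamed cluster of 62 cells led by Mki67, Cenpf and Top2a held 0.983% of kept cells with the antibody. It held 0.650% without it (exact permutation p = 0.06, adjusted p = 0.54). Another of 123 cells, with Mki67 and Top2a among its top 10 genes, held 1.47% and 1.71% (exact permutation p = 0.613). Both are in this sum but in none of the cell classes below. All 13 mitochondrially encoded respiratory genes were below 0, 7 of them at an unadjusted p under 0.05, with a median of -0.10, beside the lower mitochondrial share per cell given above. Of 84 measured cytosolic ribosomal protein genes, a list chosen after the values had been seen, 82 were below 0 with a median of -0.07 and 30 were lower at an unadjusted p under 0.05. Of 16 iron and heme genes, 6 were higher at that threshold with a median of 0.38, led by Slc7a11, Fth1 (0.38), the heavy chain of ferritin, and Lcn2, which binds bacterial iron carriers.

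**Figure D4:**
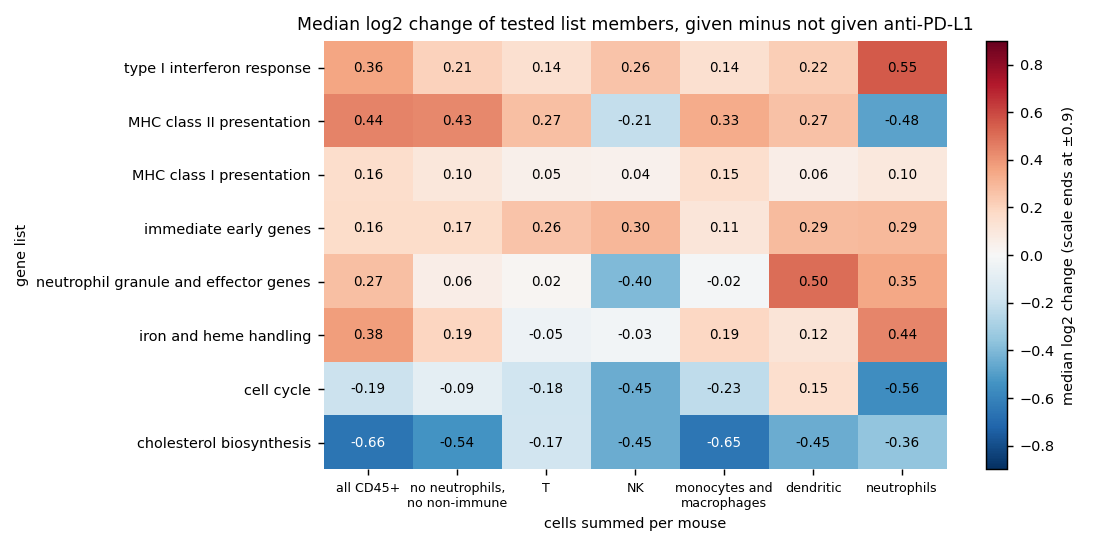
Median log2 change (colour and number) of the tested members of 8 gene lists (rows) in 7 sums of cells per mouse (columns), antibody mice relative to the others. Interferon medians lie above 0 in all 7 sums and cholesterol medians below 0 in all 7, whereas MHC class II medians lie below 0 in NK cells and neutrophils.

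Within cell classes the question was where these differences lay. The median log2 change over all genes lay between -0.03 and 0.02 in every sum of cells. In T cells (1892 cells) edgeR passed 0 of 11592 genes, with 254 (2.19%) higher and 277 (2.39%) lower at an unadjusted p under 0.05, and DESeq2 passed 7 (0.0605%) as higher and 6 (0.0518%) as lower. Among the lower were S100a9 (-1.79) and S100a8 (-2.17), opposite in sign to the sum of all cells. The 12 neutrophil markers summed to 126 to 271 CPM in T cells with the antibody and 144 to 428 CPM without. Their part in the result was not tested. Fos stood at 680, 491.9 and 501.8 CPM untreated, 742.6, 722.9, 992.2 and 724.6 CPM with minP1, 843.9, 938.8 and 1003 CPM with the antibody and 1069, 926, 1192 and 1301 CPM with both. The arms overlapped at minP1 replicate 3, and the change was 0.60 ± 0.10 (adjusted p = 0.254). Of 22 immediate early genes 11 were higher at an unadjusted p under 0.05 and 19 above 0, beside 49.3% of all genes in T cells, with a median of 0.26, led by Fos, Fosb (0.36) and Egr1 (0.57). Without doublet-scored cells 5 were higher at that threshold. Cd69, a surface marker of recent activation named after its values were seen, was at 723.2 ± 98.5 and 918.1 ± 99.5 CPM (0.35 ± 0.08) and passed DESeq2's test.

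Plac8, a small cysteine-rich protein found in monocytes and effector T cells, was at 478.1 ± 89.6 CPM without and 827.2 ± 200.7 CPM with the antibody in T cells (0.78 ± 0.15, adjusted p = 0.361). One antibody mouse, minP1_PDL1 replicate 4, was at 453.2 CPM, inside the other arm. The 11 monocyte markers, Plac8 among them, summed to 1540 to 2530 CPM in T cells of antibody mice and 1170 to 1600 CPM in the others, and their part in the result was not tested. Ppp1r15a, a stress-induced phosphatase subunit, was at 195.8 ± 31.4 and 280.6 ± 27.3 CPM (0.52 ± 0.12), and Fem1b, a subunit of a ubiquitin ligase, at 51.5 ± 11.0 and 23.6 ± 7.0 CPM with no overlap, as in 0.069% of genes lower in T cells (-1.13 ± 0.24, adjusted p = 0.538). LOC108167733 was at 0 to 0.934 CPM with the antibody and 0.666 to 8.77 CPM without. Pdcd1 differed by -0.15, Ifng by -0.36 and Gzmb by 0.24 in T cells, with unadjusted p of 0.4, 0.27 and 0.14.

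In regulatory T cells edgeR passed 0 of 8526 genes (106, or 1.24%, higher and 159, or 1.86%, lower at an unadjusted p under 0.05) and DESeq2 passed 2 (0.0235%) as lower. Those 2 were Med23, a Mediator subunit at 0 CPM in all antibody mice and 3.69 to 35.6 CPM in the others, and 1110032F04Rik, at 0 to 2.15 and 15.8 to 57.1 CPM. Foxp3, which defines the lineage, differed by -0.01 ± 0.12. Of the immediate early genes 5 of 20 were higher at an unadjusted p under 0.05, led by Fos (0.74 ± 0.20), Zfp36 (0.43) and Jund (0.37). Dnajc21, a ribosome biogenesis cochaperone, differed by 1.29 ± 0.30, and Hyls1 and Cchcr1 were at 0 in most mice.

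In CD8 T cells edgeR passed 0 of 8717 genes (116, or 1.33%, higher and 168, or 1.93%, lower at an unadjusted p under 0.05), and DESeq2 passed 3 (0.0374%) as higher and 5 (0.0623%) as lower. Plac8 was at 793.6 ± 162.7 and 1459 ± 510 CPM (0.89 ± 0.19), and Gimap4, a GTPase of lymphocytes, differed by 0.80 ± 0.18. Ndufa4, a respiratory chain subunit, was at 437.6 ± 36.9 and 265.3 ± 75.7 CPM with no overlap, as in 0.0459% of genes lower (-0.74 ± 0.18). S100a8, which T cells do not make, was at 0 to 12.8 CPM with the antibody and 0.918 to 214.7 CPM without, and Il1b at 7.30 to 31.3 and 13.9 to 180.6 CPM. Pdcd1 (-0.24), Ifng (-0.46) and Gzmb (0.31) had unadjusted p of 0.29, 0.15 and 0.21.

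In NK cells (1300 cells), lymphocytes that kill without antigen receptors, edgeR passed 0 of 10639 genes (593 at an unadjusted p under 0.05, with 2.62% higher and 2.95% lower). In these cells 0.0564% of genes were higher and 0.0846% lower with no overlap. DESeq2 passed 20 (1.74%) as higher and 2 (0.174%) as lower of the 1151 genes it adjusted. Ccr2, a chemokine receptor that draws monocytes and NK cells to CCL2, stood at 534.5, 558.1 and 480.8 CPM untreated, 512.6, 549.8, 492.3 and 517.9 CPM with minP1, 626.2, 703.7 and 774.4 CPM with the antibody and 606.8, 762.5, 807.1 and 790.0 CPM with both. All 7 antibody mice were above all 7 others, and the change was 0.48 ± 0.08 (adjusted p = 0.09). Mif, a cytokine that restrains macrophage movement, was at 529.2, 584.5 and 622.9 CPM untreated and 541.3, 605.4, 551.4 and 527 CPM with minP1. It was at 389.1, 437.2 and 458.3 CPM with the antibody and 487.6, 433.8, 363.6 and 391.4 CPM with both, again with no overlap (-0.42 ± 0.08, adjusted p = 0.225). Both passed DESeq2's test.

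Amica1, an adhesion molecule of leukocytes, was at 53.2 ± 11.3 and 106.2 ± 22.8 CPM in NK cells with no overlap (1.00 ± 0.18, adjusted p = 0.13), and S100a10, a partner of annexin A2, at 718.4 ± 123.7 and 979.4 ± 121.1 CPM (0.45 ± 0.09). Igha, an antibody heavy chain, was at 0 to 0.637 CPM in antibody mice and 0.643 to 33.7 CPM in the others. Of 21 immediate early genes in NK cells, 13 were higher and 1 lower at an unadjusted p under 0.05. Among all genes 2.62% were higher and 2.95% lower. Of the 21, 19 were above 0, beside 48.7% of all genes, and the median was 0.30. Nr4a1, an orphan receptor induced by antigen or cytokine signals, was at 711.6 ± 119.3 and 987.4 ± 168.5 CPM (0.47 ± 0.11). Fosb was at 555.2 ± 111.7 and 801.0 ± 120.7 CPM (0.53 ± 0.13) and Jun at 391.0 ± 83.0 and 554.7 ± 92.2 CPM (0.52 ± 0.14). All 3 passed DESeq2's test, as did Cd69 (0.70 ± 0.17). The 14 macrophage markers in NK cells summed to 734 to 1300 CPM with the antibody and 665 to 2430 CPM without.

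Among all genes in NK cells, 2.95% were lower and 2.62% higher at an unadjusted p under 0.05. Of 22 cytotoxic effector genes in these cells 4 were lower and 1 higher at that threshold. The lower ones included Gzmd (653.4 ± 462.3 against 263.4 ± 120.7 CPM, -1.37 ± 0.37), Gzmc (3706 ± 1450 against 2412 ± 707 CPM, -0.63 ± 0.18) and Gzme (-1.53 ± 0.46), granzymes of strongly stimulated killer cells. Gzmb (-0.05) and Ifng (0.28) had unadjusted p of 0.7 and 0.12. Of 32 cell cycle genes 6 were lower and 1 higher, with a median of -0.45. Top2a, which untangles replicated DNA, was at 45.4 ± 17.3 and 16.9 ± 10.7 CPM (-1.62 ± 0.38), whereas Mki67, a marker of dividing cells, had the opposite sign (28.4 ± 11.6 and 53.2 ± 18.9 CPM, 0.90 ± 0.32).

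In monocytes and macrophages (2695 cells) edgeR passed 0 of 14357 genes (433, or 3.02%, higher and 488, or 3.4%, lower at an unadjusted p under 0.05). DESeq2 passed 21 (0.146%) as higher and 26 (0.181%) as lower. Arms did not overlap for 0.0627% of genes higher and 0.132% lower. Fdft1, the squalene synthase that commits the pathway to sterols, stood at 16.21, 18.15 and 24.26 CPM untreated, 30.8, 22.3, 12.28 and 20.45 CPM with minP1, 9.95, 7.53 and 7.11 CPM with the antibody and 8.32, 11.46, 7.32 and 9.72 CPM with both. Every antibody mouse was below every other mouse, and the log2 change was -1.23 ± 0.20 (adjusted p = 0.0845). All 24 measured cholesterol genes were below 0 in these cells, beside 49.2% of all genes, 13 of them at an unadjusted p under 0.05, with a median of -0.65, which was -0.33 without minP1 and -0.80 with it. Insig1 (67.3 ± 11.9 against 44.2 ± 5.0 CPM, -0.61 ± 0.11) and Msmo1, a sterol oxidase (-0.75 ± 0.15), passed DESeq2's test with Fdft1.

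Tspan3, a tetraspanin of cell membranes, was at 38.12, 26.63 and 28.27 CPM untreated, 40.32, 29.3, 39.67 and 30.28 CPM with minP1, 50.88, 59.58 and 48.29 CPM with the antibody and 72.5, 48.2, 57.94 and 57.53 CPM with both. The arms did not overlap (0.77 ± 0.12, adjusted p = 0.0845). Apobec3, a cytidine deaminase that restricts retroviruses, was at 16.7 ± 2.6 and 27.2 ± 3.6 CPM, also without overlap (0.70 ± 0.13, adjusted p = 0.171). Of 32 interferon genes 29 were above 0 in these cells, beside 50.8% of all genes, with a median of 0.14. At an unadjusted p under 0.05, beside 3.02% of all genes, 8 were higher, led by Oasl2 (0.52 ± 0.13), Ifi27l2a (0.30) and Rtp4 (0.36 ± 0.11). The 8 became 2 without doublet-scored cells and 4 without minP1 replicate 1, minP1 replicate 4 or minP1_PDL1 replicate 3. Cd274 differed by 0.24 (unadjusted p = 0.13), and Stfa3 was at no more than 0.0754 CPM in antibody mice and 0 to 1.68 CPM in the others. The 12 neutrophil markers in these cells summed to 946 to 1730 CPM with the antibody and 869 to 1560 CPM without.

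Macrophages on their own gave 0 of 14024 genes by edgeR (392, or 2.8%, higher and 476, or 3.39%, lower at an unadjusted p under 0.05) and 15 by DESeq2, 6 (0.0429%) higher and 9 (0.0643%) lower. Tspan3 (0.84 ± 0.13, adjusted p = 0.111) and Fdft1 (-1.17 ± 0.20, adjusted p = 0.164) had arms apart here too, as had 0.0784% of genes higher and 0.0856% lower. So had Gpr55, a lipid receptor read at low level, at 0.518 ± 0.368 and 3.098 ± 1.417 CPM. Ptprj, a receptor phosphatase, differed by 0.51 ± 0.11, and 14 of 24 cholesterol genes were lower at an unadjusted p under 0.05, with a median of -0.65. Of the macrophage cluster with most cells, 92.2% had a doublet score over 0.5.

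In monocytes, the blood-derived precursors of tumour macrophages, edgeR passed 0 of 9809 genes (553 at an unadjusted p under 0.05, with 2.49% higher and 3.15% lower), and DESeq2 passed 7 (0.293%) as higher and 19 (0.795%) as lower. Plek, the platelet and leukocyte protein pleckstrin, stood at 1523, 1503 and 1404 CPM untreated, 1482, 1556, 1099 and 1370 CPM with minP1, 968.3, 864.8 and 1075 CPM with the antibody and 1058, 1002, 942.2 and 908 CPM with both. The arms did not overlap, as in 0.102% of genes lower (-0.54 ± 0.09, adjusted p = 0.0796). Cd44, a hyaluronan receptor, was at 2182 ± 176 and 1474 ± 303.7 CPM (-0.57 ± 0.11, adjusted p = 0.199) and Srgn, a granule proteoglycan, at 5671 ± 730 and 4188 ± 451 CPM (-0.43 ± 0.09). Rgs1, which dampens chemokine receptor signals, was higher, at 401.1 ± 104.3 and 663.9 ± 106.1 CPM (0.73 ± 0.16, adjusted p = 0.369). These 4 genes passed DESeq2's test. The 11 T cell markers in monocytes summed to 243 to 681 CPM with the antibody and 127 to 477 CPM without. The part of these and of the monocyte markers given below in the 4 changes was not tested. Of 20 cholesterol genes 19 were below 0, beside 49.2% of all genes in monocytes, and 10 lower at an unadjusted p under 0.05, with a median of -0.99.

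Of 13 MHC class II genes, 10 were tested in monocytes, with a median of 0.75. At an unadjusted p under 0.05, 8 of the 10 were higher, beside 2.49% of all genes. H2-Eb1 was at 822.2, 1510 and 790.5 CPM untreated, 1420, 1189, 1963 and 1158 CPM with minP1, 1424, 3191 and 1777 CPM with the antibody and 1200, 2587, 2304 and 4453 CPM with both. The arms overlapped and the spread was wide (0.95 ± 0.25, adjusted p = 0.45). H2-Ab1 differed by 0.74 ± 0.21 and H2-DMb1, part of the peptide loader, by 0.75 ± 0.22. In the same cells the macrophage markers summed to 3680 to 7460 CPM with the antibody and 3330 to 5410 CPM without, and the monocyte markers to 8220 to 13600 and 12300 to 16200 CPM. The part of that shift in the result was not tested.

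**Figure D5:**
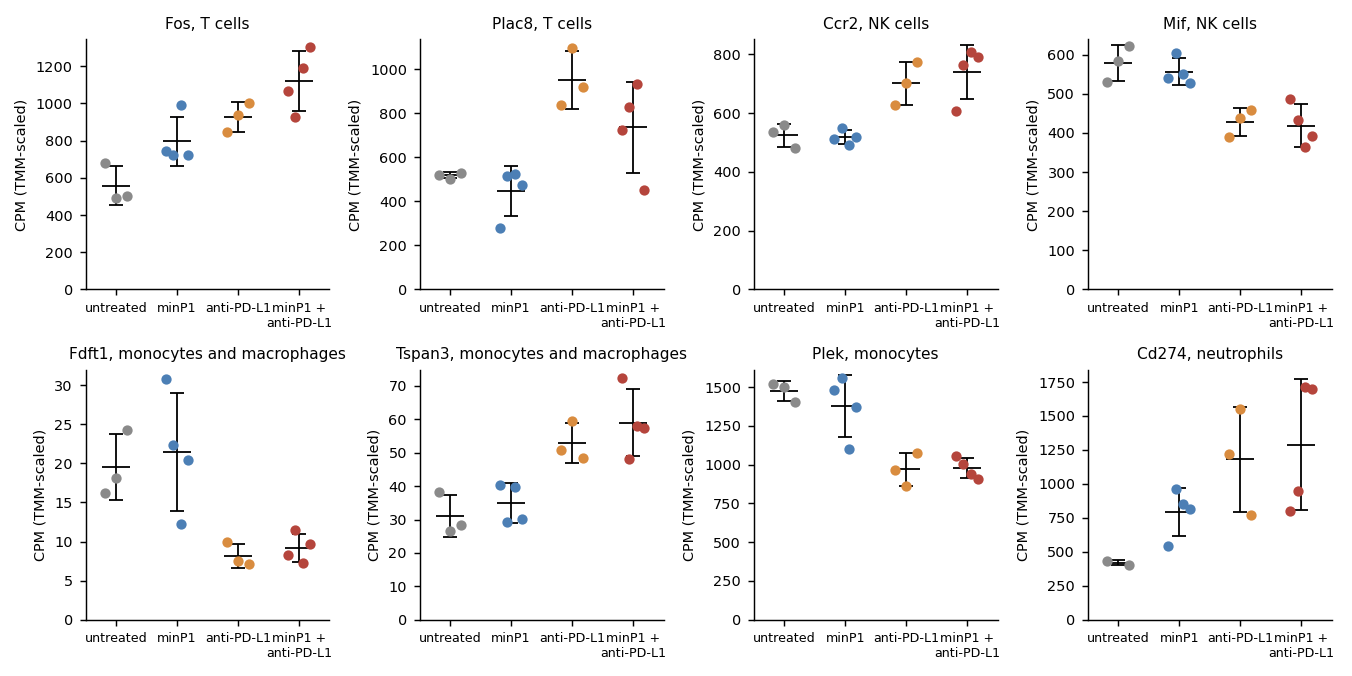
Level of 7 genes (y axes, CPM scaled by TMM) summed within a named cell class of each mouse (Plac8 and Fos in T cells, Ccr2 and Mif in NK cells, Fdft1 and Tspan3 in monocytes and macrophages, Plek in monocytes), with Cd274 in neutrophils of 13 mice; points are mice, lines means and bars SD. Ccr2, Mif, Fdft1, Tspan3 and Plek do not overlap between antibody mice and the others, while Fos, Plac8 and Cd274 do.

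In dendritic cells (462 cells) edgeR passed 0 of 10779 genes (217, or 2.01%, higher and 195, or 1.81%, lower at an unadjusted p under 0.05) and DESeq2 passed 1 (0.0138%) as lower. That gene was Fn1, fibronectin, a matrix protein that monocytes also make. It stood at 325.1, 453.8 and 427.7 CPM untreated, 498.3, 317.3, 170.3 and 464.4 CPM with minP1, 291.6, 81.2 and 287.7 CPM with the antibody and 74.2, 92.1, 69.2 and 69.4 CPM with both. The arms overlapped at minP1 replicate 3, and the change was -1.65 ± 0.32 (edgeR adjusted p = 0.676). The 11 monocyte markers, Fn1 among them, summed to 3530 to 6620 CPM in dendritic cells of antibody mice and 5170 to 6320 CPM in the others. Dynlt1f, a dynein light chain, was at 83.1 ± 5.2 and 128.4 ± 15.9 CPM with no overlap, as in 0.0186% of genes higher (0.62 ± 0.14), and Anxa3 (-1.52 ± 0.37), Acadl (0.69 ± 0.17) and Psat1 (-1.31 ± 0.33) had adjusted p of 1.

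All 12 measured MHC class II genes were above 0 in dendritic cells, beside 49.1% of all genes, with a median of 0.27. At an unadjusted p under 0.05, 7 were higher, beside 2.01% of all genes. H2-DMb1 was at 696.0 ± 52.9 and 902.3 ± 128.8 CPM (0.37 ± 0.10), H2-Eb1 at 2984 ± 351 and 3923 ± 795 CPM (0.39 ± 0.12) and Ciita at 69.2 ± 15.9 and 108.2 ± 20.8 CPM (0.64 ± 0.19). The mix of dendritic cells also differed. With the antibody and without it, cDC1 held 20.4% and 11.1% of them, and cDC2 39.6% and 38.9%. Plasmacytoid cells held 34.4% and 40.4%, and mature dendritic cells 5.55% and 9.66%. The part of this mix in the result was not tested. Without doublet-scored cells 3 MHC class II genes were higher at an unadjusted p under 0.05. Of 22 immediate early genes 7 were higher, led by Fos at 970.4 ± 237.9 and 1522 ± 315 CPM (0.64 ± 0.16), and that count ran from 4 without minP1_PDL1 replicate 2 to 13 without minP1_PDL1 replicate 1.

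Neutrophils could be compared in 13 mice, since Control replicate 1 had 8 of them, fewer than the 10 required. edgeR passed 0 of 7522 genes (251, or 3.34%, higher and 186, or 2.47%, lower at an unadjusted p under 0.05), and DESeq2 passed 15 (2.88%) as higher and 20 (3.84%) as lower of the 521 it adjusted. Cd274 stood at 432 and 405.8 CPM in the untreated mice, 540.6, 963.8, 851.7 and 812.4 CPM with minP1, 1218, 1549 and 773.1 CPM with the antibody and 800.4, 945, 1711 and 1698 CPM with both. The arms overlapped, and the change was 0.99 ± 0.25 (unadjusted p = 0.00096, edgeR adjusted p = 0.69). Cd274 passed DESeq2's test, and its change was 0.68 without doublet-scored cells. The 12 neutrophil markers in these sums ran from 21200 to 53500 CPM with the antibody and 16600 to 33700 CPM without. Their part in the higher genes was not tested. S100a9, which helped to define the cluster, was at 9577 ± 2419 and 15350 ± 4450 CPM (0.75 ± 0.17, adjusted p = 0.688).

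Of 30 interferon genes in neutrophils 27 were above 0, beside 50.9% of all genes. At an unadjusted p under 0.05, 7 were higher, beside 3.34% of all genes. The median of 0.55 was 0.80 without minP1 and 0.40 with it. Isg15 was at 543.7 ± 160.7 and 976.9 ± 286.5 CPM (0.84 ± 0.25), and Rsad2, the antiviral enzyme viperin, differed by 1.04 ± 0.34 and Rtp4 by 0.77 ± 0.26. The 7 became 1 without doublet-scored cells and 4 without minP1_PDL1 replicate 1. Ccl5, a chemokine of T and NK cells, was at 975.3 ± 390.3 and 458.7 ± 105.8 CPM (-1.12 ± 0.26), but the value was 0.19 without doublet-scored cells. Among all genes in neutrophils 2.47% were lower at an unadjusted p under 0.05. The cytotoxic genes Nkg7 and Prf1, and 38 of 80 ribosomal protein genes (median -0.47), were lower at that threshold, as was Ptma, prothymosin alpha (-0.77 ± 0.18). Beside these, T cell markers in the neutrophil sums ran from 948 to 2500 CPM with the antibody and 1380 to 3640 CPM without, and NK markers from 2720 to 3880 and 3090 to 6620 CPM. Apex1, a DNA repair enzyme, was at no more than 1.23 CPM with the antibody and 13.8 to 87.1 CPM without, and 2810021J22Rik at 1.83 to 43.4 CPM with it and 0 in all others.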

How the data were processed

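The submitters' processing notes name cutadapt 2.10, Bowtie2 2.3.4.1, Seurat 2.3.4 and the build mm10. Per the labels, barcodes above the knee-plot inflection were kept, and hashtag reads assigned each to a mouse. The table the authors deposited holds raw counts of reads for 22836 genes and 8262 barcodes. Its entries above 0 have a median of 10 reads, so molecular identifiers had not been used to collapse them. Reads are thus not independent molecules, and the mouse is the unit. The 147 barcodes marked as doublets (141) or without a hashtag (6) were not used, and 383 cells with over 25% of reads in 36 mitochondrial genes were removed. The labels state 7613 cells under the study's filter.

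Cells were clustered with Leiden (leidenalg 0.10.2, resolution 1, 2000 variable genes, 30 principal components, 20 neighbours), and a cluster took a name when at least 3 markers of a type were among its top 50 genes by fold. Names were thus rebuilt here. Doublets were scored by how many of a cell's 50 neighbours were simulated doublets, and the main analysis removed no cell by that score. Of simulated doublets 72.1% scored over 0.5.

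Counts were summed per mouse and class (at least 10 cells) and tested with edgeR 4.0.16 (quasi-likelihood, TMM, filterByExpr, terms for minP1 and the antibody, two-sided, Benjamini-Hochberg threshold 0.05). DESeq2 1.42.0 was an alternative, as were other normalization, filters, clustering, a replicate block and leaving out each mouse. Shares were tested by exact permutation within minP1 strata over 1400 relabellings. Replicates are separate mice. Their numbers were not used to pair them in the main model. Same-numbered mice of different groups correlated from -0.07 to 0.23 (median 0.02), with 2 of 19 pairs over 0.1. Other pairs correlated from -0.233 to 0.127 (median -0.00456), with 2 of 54 over 0.1. Whether same-numbered mice shared a run was not tested.

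Members and lists were chosen with earlier results of these data known. Of genes past the threshold, the 15 of smallest p in each direction and up to 15 list members could be named. With fewer than 3 past it, values were given for the 5 of smallest p. Each list showed its 3 members of smallest p, and 14 genes of the PD-L1, Fc receptor, killing and neutrophil axes were always computed. Other genes, such as those DESeq2 passed, were named after their values were seen. A few members that these rules would name are not reported here.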

Additional observations from a re-analysis of the deposited data

Results flagged for a closer look

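Of 240 groups of mice tested for a single mouse far from the rest, 14 gave one, beside 12 expected by chance at 1 in 20. Among the 4 minP1 mice, replicate 1 had the lowest total reads, 33170000, with the nearest mouse at 43060000. The same mouse had the lowest Isg15 of the mice not given the antibody in all CD45+ cells (47.5 CPM, nearest 78.5) and the lowest Plac8 in T cells (279.3 CPM, nearest 474.2).

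In minP1 replicate 3, S100a8 was 288.7 CPM in all CD45+ cells, with the nearest minP1 mouse at 173.3, and Gzmb was 1404 CPM, with the nearest mouse not given the antibody at 1138. Fos in T cells of this mouse was 992.2 CPM (nearest minP1 mouse 742.6), while Plek in its monocytes was 1099 CPM (nearest mouse not given the antibody 1370) and Cd44 1950 CPM (nearest minP1 mouse 2253). In each of S100a8, Fos, Plek and Cd44 the mouse lay toward the antibody arm. S100a10 in NK cells of Control replicate 3 was 969.5 CPM, with the nearest mouse not given the antibody at 748.4.

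Among mice given both agents, replicate 1 had the lowest Fosb in all CD45+ cells (661 CPM, nearest 794.2) and the lowest Dynlt1f in dendritic cells (102.2 CPM, nearest 126.1). Replicate 3 had the highest S100a9 in neutrophils (22590 CPM, nearest 15030) and, among all antibody mice, the highest Gzmd in NK cells (518.9 CPM, nearest 292.2). Replicate 4 had the lowest Gzmc in NK cells (1249 CPM, nearest 2094).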

How the results depend on the processing

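Where edgeR passed 0 genes, DESeq2 passed 109 in all CD45+ cells, 60 without neutrophils and non-immune clusters, 13 in T, 22 in NK and 1 in dendritic cells, 47 in monocytes and macrophages, 26 in monocytes, 15 in macrophages, 35 in neutrophils, 2 in regulatory and 8 in CD8 T cells, and 11 for the interaction. With no filter on low counts edgeR passed 13 genes in CD8 T cells, 3 in monocytes, 25 in neutrophils and 5 in regulatory T cells. It passed 1 in monocytes with no minP1 term, 1 in all cells without non-immune clusters and 1 in dendritic cells with the replicate block. The block changed no other edgeR gene count, and the mouse numbers share no origin in the labels. Neutrophils were the 1 class passing with edgeR on cells, at a log2 change of 1.13, or 1.16 with the replicate block, and their share of myeloid cells differed by 9.12 points. Without doublet-scored cells, list members at an unadjusted p under 0.05 were 3 for MHC class II in dendritic cells, 5 for immediate early genes in T cells and in the sum without neutrophils, and for interferon 7 in that sum, 2 in monocytes and macrophages and 1 in neutrophils. Interferon members were 5 in monocytes and macrophages by the mean of strata and 3 in neutrophils with at least 20 cells per mouse. Neutrophil granule members were 4 without neutrophils. The cause was not tested. Alternatives on list members, on leaving out neutrophils and on the share of myeloid cells were chosen after seeing the data. Signs turned without doublet-scored cells for Ccl5 in neutrophils (0.19), Cd80 (0.0349), Ifng (-0.125) and Fcgr3 (0.0984), and for Fcgr3 with DESeq2 (0.00606), RLE scaling (0.00599), the mean of strata (0.0162) and the replicate block (0.015).

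Leaving out each mouse in turn, edgeR passed 0 to 10 genes in all cells (10 without minP1 replicate 3, 1 without Control replicate 1, PDL1 replicate 1 or minP1_PDL1 replicate 2), 0 to 1 without neutrophils and non-immune clusters, in T and in CD8 T cells, 0 to 2 in NK cells and monocytes, 0 to 3 in monocytes and macrophages and 0 to 4 in macrophages. Classes passing ran from 0 to 1, with a neutrophil difference of 4.34 to 5.23 points. Members at an unadjusted p under 0.05 ran from 2 to 9 for MHC class II in all cells. For immediate early genes they ran from 7 to 13 in all cells, 5 to 16 without neutrophils and 4 to 13 in dendritic cells. For interferon they ran from 4 to 9 in monocytes and macrophages and 4 to 10 in neutrophils. Changes crossed 0 for Cd80 (-0.117 to 0.0886), Fcgr2b (-0.147 to 0.0437), Fcgr3 (-0.0754 to 0.0764), Gzmb (-0.115 to 0.0229), Ifng (-0.0475 to 0.184) and Pdcd1 (-0.139 to 0.0341), all in all CD45+ cells. Of 1516 such values of named genes 1476 kept direction and side of the threshold, as did 902 of 992 under the other alternatives. The rest turned sign (18 and 8) or passed the threshold (22 and 82). No named gene passed edgeR in the main analysis, so keeping the side of the threshold means only that it still did not pass. The 8 to 62 neutrophils per mouse limit what their sums can show.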
